A study of Rattus norvegicus with 17 samples.

Results

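Chemokines are small secreted proteins that direct white blood cells through tissue, and their genes were read here in the skin of hairless rats with and without chronic exposure to millimetre waves. The set comprised each gene whose rat symbol begins with Ccl, Cxcl, Ccr or Cxcr and a digit, together with Cx3cl1 and Cx3cr1. The rule used names only and no measured value. It found 51 probes for 49 genes, 32 ligands and 17 receptors, among the 15148 genes that could be named on the array. Cxcl3 and Ccr8 also match the rule and were not analysed here.

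The skin came from male CD hairless rats, given as 2 to 3 months old, and the labels name no further allele or agent. The exposed group received 94 GHz radiation in daily sessions of 3 h, 3 days a week, for 5.5 months. The sham group was sham exposed on that schedule. Skin explants taken at the end gave 9 exposed and 8 sham samples, each on its own 1-colour Agilent array. The given age is shorter than the exposure, so it cannot be the age when the skin was taken. The study design counts 6 exposed and 8 sham rats, fewer exposed rats than arrays. If arrays share a rat, p-values are too small. No label links an array with its rat, and each p reflects only the scatter among arrays, part of which may be technical. The model is limited to whole skin of a single hairless strain and of males, and cell types were not separated. In such bulk tissue, fewer cells of a type and less RNA per cell cannot be told apart.

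Chemokines bind membrane receptors that couple to inhibitory G proteins, and cells move up the gradient of the ligand. Inflammatory members are induced in keratinocytes, fibroblasts and white blood cells by inflammatory cytokines, whereas homeostatic members steer the routine traffic of lymphocytes and dendritic cells. In skin, Ccl27 and Ccl17 attract skin-homing T cells, Cxcl1 and Cxcl2 attract neutrophils, and Ccl19 and Ccl21 guide dendritic cells into lymph vessels.

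The promoters of 4 CXC ligands are shown because these ligands were compared in pairs. Whether promoter letters bear on the relation of a pair was not tested. Cxcl9 and Cxcl10 varied together over the explants. For Cxcl1 and Cxcl2, close neighbours that act on the same receptor, no relation passed the test, and Cxcl2 stood far above its other values on 1 array. The sequences are RefSeq's for the assembly GRCr8. Each covers 250 bases before the gene's start and 50 after it, read 5′ to 3′ in the gene's direction. They lie at chr14:17479272-17479571 for Cxcl1 and chr14:17467206-17467505 for Cxcl2, both on the minus strand, and at chr14:16006916-16007215 for Cxcl9 and chr14:15988816-15989115 for Cxcl10, both on the plus strand. Capitals mark matches, on either strand, to the letters GGG, any 3 bases and TTCC, a form of the kappa B element, or to GAAA, any 2 bases and GAAA, the core of an interferon response element.
Cxcl1: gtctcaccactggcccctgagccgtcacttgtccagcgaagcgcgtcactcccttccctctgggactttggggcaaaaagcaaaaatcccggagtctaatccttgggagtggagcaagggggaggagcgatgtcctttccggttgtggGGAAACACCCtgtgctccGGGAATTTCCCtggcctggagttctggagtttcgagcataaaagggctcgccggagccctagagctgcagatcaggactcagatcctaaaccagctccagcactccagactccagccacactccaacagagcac
Cxcl2: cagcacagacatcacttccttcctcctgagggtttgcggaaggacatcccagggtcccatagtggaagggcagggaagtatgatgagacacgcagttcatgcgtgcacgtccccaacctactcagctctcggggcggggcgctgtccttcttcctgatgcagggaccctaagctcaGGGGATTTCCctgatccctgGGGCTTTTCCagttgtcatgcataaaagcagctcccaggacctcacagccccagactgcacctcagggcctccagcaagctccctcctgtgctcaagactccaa
Cxcl9: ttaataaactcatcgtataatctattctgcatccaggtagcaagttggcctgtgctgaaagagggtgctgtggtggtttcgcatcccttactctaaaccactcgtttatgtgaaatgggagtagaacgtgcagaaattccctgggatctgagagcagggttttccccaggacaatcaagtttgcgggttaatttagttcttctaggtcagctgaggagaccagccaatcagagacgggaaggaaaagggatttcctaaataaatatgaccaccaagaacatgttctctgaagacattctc
Cxcl10: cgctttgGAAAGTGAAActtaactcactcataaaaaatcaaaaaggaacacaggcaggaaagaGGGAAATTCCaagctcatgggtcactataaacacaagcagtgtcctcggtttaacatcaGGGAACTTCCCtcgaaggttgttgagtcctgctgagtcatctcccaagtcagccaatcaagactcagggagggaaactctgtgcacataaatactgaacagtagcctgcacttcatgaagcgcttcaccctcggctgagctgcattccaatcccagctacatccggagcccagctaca

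The Cxcl1 promoter held 3 kappa B matches, of which those 84 and 83 bases before the start overlap on opposite strands. The Cxcl2 promoter held 2, at 74 and 54 bases before the start. The Cxcl10 promoter held 3, with an overlapping pair at 128 and 127 bases, and the only interferon element match of the 4, at 243 bases. In the Cxcl9 window neither string of letters occurred. Promoters were at hand for 38 of the 49 genes, and the kappa B string occurred in 10 of them, or 26.3%, beside 5.37% of 33469 rat promoters of that length. Those 10 were Ccl6, Ccl7, Ccl9, Ccl20, Ccr3, Cxcl1, Cxcl2, Cxcl6, Cxcl10 and Cxcl11. The interferon string occurred in 2 of the 38, Ccl19 and Cxcl10, or 5.26%, beside 3.92% of all promoters. A match describes letters in a window and is not a bound site.

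The 75th percentile of the processed signal, to which every array was scaled, ran from 1077 to 1703. It was 1485 ± 193 (SD, n = 9) in exposed and 1352 ± 185 (SD, n = 8) in sham arrays. Between 71.2% and 74.9% of spots lay well above background and none was saturated. Basal keratinocyte keratins Krt5, Krt14 and Krt15 were well above background on all 17 arrays. Marker RNA of hair follicle and skeletal muscle differed among the explants, and their tissue make-up itself was not measured. A hair follicle score ran from -6.16 to 2.07 and a skeletal muscle score from -3.53 to 5.76 log2 units. These scores are the mean over marker genes of the log2 value minus that gene's mean, and the lowest follicle score belonged to sham replicate 5.

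Most ligands and 9 of the receptors could be measured. A probe was kept where it lay well above background on at least 8 arrays, which 35 of the 49 genes did, 34 of them on all 17 arrays and Ccr10, the receptor of Ccl27 and Ccl28, on 16. Of the ligands 26 of 32 were kept, and of the receptors 9 of 17. Among the receptors kept were Ccr6, Ccr7, Ccr9, Ccr10, Cx3cr1, Cxcr2, Cxcr4 and Cxcr6. This filter favours genes that are high in either group, so counts over the 35 kept genes do not speak for all 49.

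The other 14 genes had at most a detection call. Ccl25, Ccl26, Ccr4, Cxcl6 and Cxcr5 were not well above background on any array. Ccr2, the monocyte receptor for Ccl2, was detected on 5 exposed and 2 sham arrays, and Ccr1, a receptor for Ccl3 and Ccl5, on 3 and 2. Ccr1l1 was detected on 3 and 3, Ccl4 on 1 and 3, and Cxcl11 on 1 and 2. Cxcr3, the receptor shared by Cxcl9, Cxcl10 and Cxcl11, was detected on 2 exposed arrays and no sham array. Ccr3 and Cxcl17 were detected on 1 exposed array each, and Cxcr1 on 1 sham array. A two-sided exact test of these counts, run on the 5698 probes detected on 1 to 16 arrays, called none after Benjamini-Hochberg adjustment, 0% of all probes and 0 of the 9 of these genes tested. At an unadjusted p under 0.05 it found 63 probes, 1.11%, and again 0 of the 9. With groups of this size a probe detected on 3 arrays or fewer cannot reach such a p. That holds for Ccr3, Cxcl11, Cxcl17, Cxcr1 and Cxcr3, so for these genes the test could not have called a difference. Such probes are also among the 5698. The level of receptors such as Ccr2 and Cxcr3 therefore had only a bound in most explants.

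The kept genes spread more widely over the explants than most kept probes. The standard deviation (SD) of the log2 value over 17 arrays had a median of 0.48 over the 35 genes, beside 0.19 over all 20710 kept probes. It lay above the 75th percentile of all kept probes, 0.31 log2 units, for 22 of 35, where the background is 25%. It exceeded 0.5 log2 units for 16 of 35, where the background is 8.81%. The SD over arrays was more than 2 times the SD between spots of the probe on one array for 30 of 35 genes, beside 47.5% of the 12506 kept probes with an SD between spots. Each explant was read on 1 array, so the former spread holds differences between explants and technical differences between arrays. The latter holds only technical scatter within an array. With each array left out in turn, 22 to 24 of the 35 lay above the 75th percentile recomputed for that set, 21 or 22 of them from the 22.

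**Figure D1:**
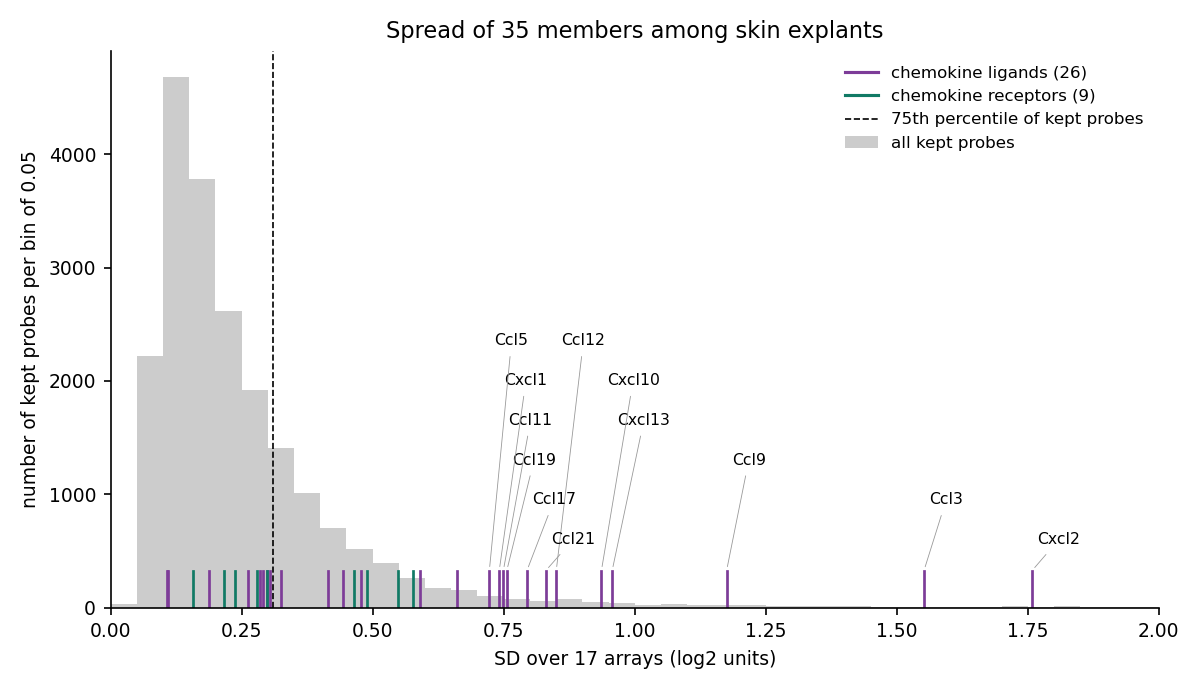
Histogram of the SD over 17 arrays (log2 units, x axis) of all kept probes, with 35 vertical ticks for the chemokine ligands and receptors and names for the 12 with the largest SD. The dashed line is the 75th percentile of all kept probes, 0.31, and 22 of the 35 ticks lie to its right, with Cxcl2 farthest at 1.76.

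The 12 genes with the largest SD were all ligands. In order they were Cxcl2 at 1.76, Ccl3 at 1.55, Ccl9 at 1.18, Cxcl13 at 0.96, Cxcl10 at 0.94, Ccl12 at 0.85, Ccl21 at 0.83, Ccl17 at 0.79, Ccl19 at 0.76, Ccl11 at 0.75, Cxcl1 at 0.74 and Ccl5 at 0.72 log2 units. Neighbours in this order were often close, and no test separates them. At the other end, Ccl24, an eosinophil attractant, and Cxcl16, a membrane-bound ligand of Cxcr6, had SDs of 0.11, and each stayed within a range of 1.27-fold and 1.35-fold over the 17 explants. Ccl27, made by keratinocytes, had an SD of 0.30 and Cxcl14, an epithelial ligand, one of 0.26.

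Between exposed and sham skin no probe passed the test. limma's moderated test with Benjamini-Hochberg adjustment called 0 of 20710 probes at an adjusted p under 0.05, 0%, and 0 of the 35 genes, with a smallest adjusted p of 0.983. Before adjustment 943 probes, 4.55%, had a p under 0.05, with 123, 0.594%, higher and 820, 3.96%, lower after exposure. Of the 35 genes 2 had an unadjusted p under 0.05, both lower, Cx3cl1 and Ccr9. The median difference over the 35 genes was -0.02, with 16 higher and 19 lower, beside -0.02 over all kept probes, of which 61.3% were lower. For 0 of 35 genes did the groups not overlap, where the background is 0.00483%. The 95% interval for exposure stayed within 1.5-fold in either direction for 17 of the 35 genes and within 2-fold for 25. For the other 10 the interval reached beyond 2-fold.

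**Figure D2:**
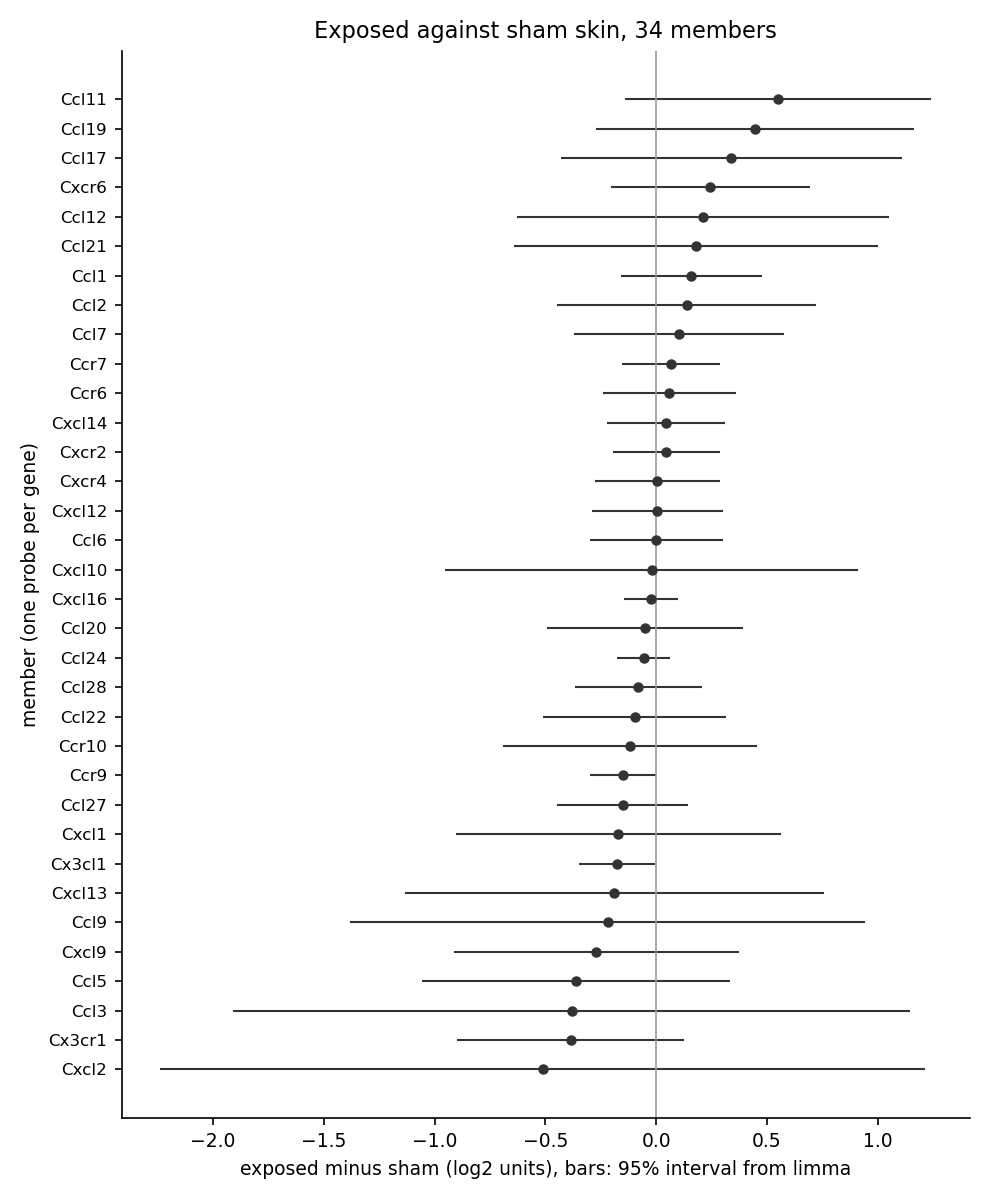
Exposed minus sham (log2 units, x axis) for 34 of the 35 measured genes (y axis, 1 probe a gene), each point being limma's estimate from 9 exposed and 8 sham arrays and each bar its 95% interval. Point estimates run from -0.51 for Cxcl2 to 0.55 for Ccl11, and the bars of Cx3cl1 and Ccr9 alone end short of 0.

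Among the neutrophil-attracting CXC ligands, a single array set the range of Cxcl2. It ran from -5.54 through a median of -4.68 to -3.11 in exposed skin and from -5.59 through -4.62 to 2.16 in sham skin, in log2 units relative to the array's 75th percentile. The value of 2.16 came from sham replicate 6 and the next array, exposed replicate 8, had -3.11, so 1 explant stood apart and the other 16 overlapped. On that array both spots of the probe gave processed signals of 4799 and 4847, against 124 and 149 for the next array, a scaled ratio of 38.6-fold. The exposed minus sham difference of Cxcl2 was -0.51 (-2.24 to 1.21, the 95% interval as in all such brackets; limma adjusted p = 0.983). Of the 9 exposed values 2 exceeded the sham mean. Without sham replicate 6 the difference was 0.35 and the SD over arrays 0.67.

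Cxcl1 acts on the same receptor, Cxcr2, and had no such array. It ran from -2.60 through -2.20 to -0.95 in exposed and from -3.02 through -1.59 to -0.58 in sham skin. The groups overlapped throughout, sham replicates 8 and 3 being highest and sham replicate 5 lowest, and the difference was -0.17 (-0.90 to 0.56; limma adjusted p = 0.985). It was -0.02 without sham replicate 8 and -0.37 without sham replicate 5. Cxcr2 itself stayed between -3.65 and -2.68 over all arrays.

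The interferon-induced ligands Cxcl9 and Cxcl10, which attract activated T cells through Cxcr3, peaked on an exposed array. Cxcl10 ran from -5.22 through -4.18 to -1.27 in exposed and from -4.84 through -4.09 to -2.84 in sham skin. Exposed replicate 2 held the highest value, 7.51-fold over the median of the 17 arrays, and sham replicates 5 and 6 came next. The difference between groups was -0.02 (-0.95 to 0.91; limma adjusted p = 0.997), and without exposed replicate 2 it was -0.36. Cxcl9 ran from -4.38 through -3.66 to -1.94 in exposed and from -4.18 through -3.26 to -2.30 in sham skin, with the same exposed array on top. Its difference was -0.27 (-0.92 to 0.37; limma adjusted p = 0.983).

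Among the other CXC ligands, Cxcl13, which attracts B cells, was also highest in sham replicate 6. It ran from -1.82 through -0.95 to 0.05 in exposed and from -1.83 through -0.87 to 2.26 in sham skin. The other 7 sham arrays lay between -1.83 and -0.69 and overlapped with the exposed arrays, and the difference was -0.19 (-1.14 to 0.76; limma adjusted p = 0.986). Without sham replicate 6 it was 0.23, of the opposite sign. Cxcl12, which holds stem cells and white blood cells in place through Cxcr4, has a pair of kept probes for different transcripts. The brighter gave a difference of 0.005 (limma adjusted p = 0.998) and the other 0.22 (limma adjusted p = 0.983). Cxcl14 and Cxcl16 differed by 0.04 and -0.02 between the groups, with intervals of -0.22 to 0.31 and -0.15 to 0.10.

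Of the inflammatory CC ligands, Ccl3 had the widest range in the set after Cxcl2. Ccl3, a macrophage product that acts on Ccr1, ran from -5.14 through -3.64 to -0.98 in exposed and from -5.02 through -3.61 to 0.93 in sham skin. Sham replicate 6 was highest and exposed replicate 3 next, and the 10 spots of the probe on sham replicate 6 gave signals of 1529 to 2198 against 749 to 852 on exposed replicate 3. The difference was -0.38 (-1.91 to 1.15; limma adjusted p = 0.985), and without sham replicate 6 it was 0.21. Ccl9, a further macrophage product, ran from -5.60 through -3.89 to -1.55 in exposed and from -5.11 through -3.98 to -1.98 in sham skin. Exposed replicate 3, sham replicate 7 and sham replicate 1 were highest, so high values occurred in both groups. Sham replicate 6, the highest array for Ccl3, was not among them. Exposed replicate 3 and sham replicate 7 were the next highest arrays for Ccl3, at -0.98 and -2.68. The difference of Ccl9 was -0.22 (-1.38 to 0.94; limma adjusted p = 0.986).

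Ccl5, released by T cells and macrophages, ran from -3.33 through -2.84 to -1.75 in exposed and from -3.62 through -2.70 to -0.56 in sham skin. A single exposed value of 9, that of replicate 2, exceeded the sham mean. The difference was -0.36 (-1.06 to 0.33; limma adjusted p = 0.983), and without sham replicate 6 it was -0.09. Ccl12, a monocyte attractant, ran from -5.10 through -3.59 to -2.45 in exposed and from -5.33 through -4.23 to -2.31 in sham skin. Its highest array was sham replicate 5 and its lowest sham replicate 8, so both ends lay in 1 group, and the difference was 0.21 (-0.63 to 1.05; limma adjusted p = 0.985). Without sham replicate 8 it was 0.01 and without sham replicate 5 it was 0.45. The monocyte attractants Ccl2 and Ccl7 differed by 0.14 and 0.10, and Ccl1 and Ccl6 by 0.16 and 0.00. Over the 8 measured inflammatory CC ligands, 4 were higher and 4 lower, and 0 had an unadjusted p under 0.05.

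Of the ligands linked to eosinophils and type 2 T cells, Ccl11 had the largest difference of the 35 kept genes. Ccl11, or eotaxin, attracts eosinophils through Ccr3, and ran from -4.41 through -3.57 to -1.90 in exposed and from -4.67 through -4.01 to -2.76 in sham skin. The groups overlapped widely, although 7 of 9 exposed values exceeded the sham mean, with exposed replicate 8 highest and sham replicate 1 lowest. The difference was 0.55 (-0.14 to 1.24; limma adjusted p = 0.983). The first number of the code in each sample title was read as the slide. The difference was 1.02 within slide 1, 0.80 within slide 2 and 1.37 within slide 3, where each group had 1 array, but -0.25 within slide 4. Its unadjusted p was under 0.05 with slide as a block, without exposed replicate 7 and without sham replicate 6, with limma adjusted p of 0.999, 0.942 and 0.9997. Its receptor Ccr3 was detected on 1 array.

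Ccl17 attracts skin-homing T cells through Ccr4. It ran from -4.40 through -2.85 to -1.19 in exposed and from -4.26 through -3.34 to -2.44 in sham skin. Exposed replicates 6 and 2 were highest and exposed replicate 5 lowest, which put both ends in the exposed group, and the difference was 0.34 (-0.43 to 1.11; limma adjusted p = 0.983). It was 0.12 without exposed replicate 6 and 0.52 without exposed replicate 5. Ccl22, the other ligand of Ccr4, differed by -0.10 and Ccl24 by -0.06. Of these 4 ligands 2 were higher and 2 lower.

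The homing ligands Ccl19 and Ccl21 bind Ccr7 and draw dendritic cells and naive T cells. Ccl19 ran from -1.20 through -0.44 to 1.25 in exposed and from -1.36 through -0.43 to 0.24 in sham skin. Exposed replicates 2, 1 and 6 were the 3 highest, the medians nearly coincided, and the difference was 0.45 (-0.27 to 1.16; limma adjusted p = 0.983), or 0.27 without exposed replicate 2. It was 0.94 within slide 1, -0.35 within slide 2, 0.51 within slide 3 and 0.09 within slide 4. Ccl21 ran from -0.81 through 0.52 to 0.72 in exposed and from -1.45 through 0.36 to 1.91 in sham skin. Here the sham group held both the highest array, replicate 5, and the lowest, replicate 1, and its SD was 1.12 beside 0.51 in the exposed group. The difference was 0.18 (-0.64 to 1.00; limma adjusted p = 0.986), and Ccr7 differed by 0.07. The epithelial ligands Ccl20, Ccl27 and Ccl28 differed by -0.05, -0.15 and -0.08, and Ccl20 had its highest value, 0.58, on exposed replicate 9.

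**Figure D3:**
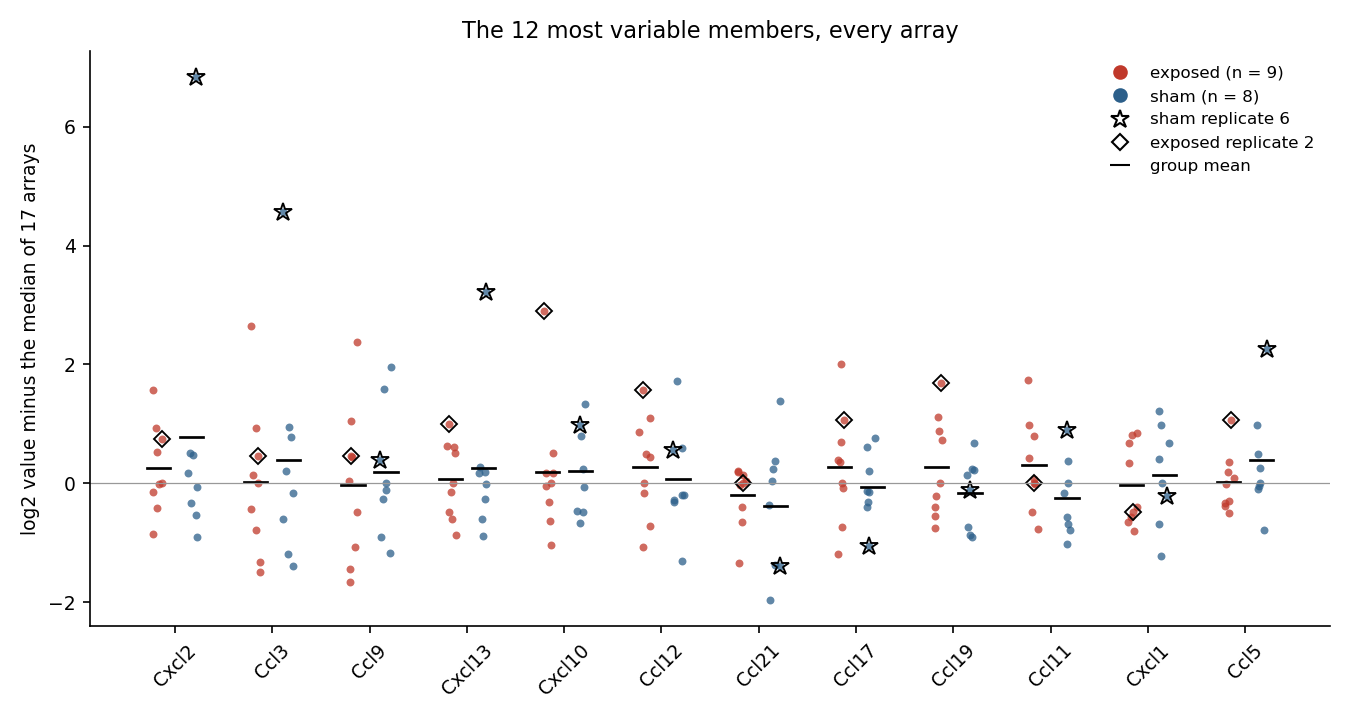
Log2 value minus the gene's median over 17 arrays (y axis) for the 12 genes with the largest SD (x axis), 1 point per array, exposed (n = 9) and sham (n = 8), with a line at each group mean. Sham replicate 6 (star) is highest for Cxcl2, Ccl3, Cxcl13 and Ccl5, and exposed replicate 2 (diamond) for Cxcl10 and Ccl19.

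The CX3C pair and 2 further receptors completed the genes with the smallest p. Cx3cl1, or fractalkine, is a membrane-bound ligand that holds monocytes and T cells carrying Cx3cr1. It ran from 0.72 through 0.86 to 1.21 in exposed and from 0.71 through 1.10 to 1.29 in sham skin. The groups overlapped at both ends, with 1 of 9 exposed values above the sham mean, and the difference was -0.18 (-0.35 to -0.0035; limma adjusted p = 0.983). Its means on slides 1 to 4 were 0.84, 0.88, 1.07 and 1.22, with an unadjusted p under 0.05 over slides (limma F test adjusted p = 0.333). With slide as a block the difference between groups was -0.09, and within slides 1 to 4 it was -0.10, -0.15, -0.07 and -0.01. Exposed and sham arrays numbered 3 and 2, 4 and 2, 1 and 1, and 1 and 3 on those slides.

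Ccr9, a receptor of gut-homing lymphocytes, ran from -0.57 through -0.44 to -0.30 in exposed and from -0.45 through -0.33 to 0.02 in sham skin. None of the 9 exposed values exceeded the sham mean, yet the ranges overlapped between -0.45 and -0.30. The difference was -0.15 (-0.30 to -0.0027; limma adjusted p = 0.983), and -0.12 with slide as a block. Its ligand Ccl25 was not well above background on any array. Neither Cx3cl1 nor Ccr9 kept an unadjusted p under 0.05 with median or quantile scaling, after normexp background correction, without the filter on dim probes, with slide as a block, within slide 1, 2 or 4, with array weights, or in the authors' deposited values. Both kept such a p where probes had to be well above background on all 17 arrays, and where spots marked as outliers were kept. With each array left out in turn, Cx3cl1 had one in 5 and Ccr9 in 8 of the 17 fits.

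Cx3cr1, carried by monocytes and tissue macrophages, ran from -0.47 through -0.14 to 0.83 in exposed and from -0.09 through 0.33 to 1.35 in sham skin. Sham replicates 6 and 7 and exposed replicate 8 were highest, and 2 of 9 exposed values exceeded the sham mean. The difference was -0.39 (-0.90 to 0.12; limma adjusted p = 0.983). It was -0.04, -0.38, 0.53 and -0.97 within slides 1 to 4. Cxcr6, a receptor of resident T cells, ran from -4.50 through -3.83 to -3.64 in exposed and from -5.36 through -4.17 to -3.49 in sham skin. Its lowest array was sham replicate 6, and the difference was 0.24 (-0.20 to 0.69; limma adjusted p = 0.983), or 0.08 without that array. The receptors Ccr6, Ccr10, Cxcr2 and Cxcr4 differed by 0.06, -0.12, 0.04 and 0.005.

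Over all 35 genes, 2 explants were most often the highest array. Lowest values were most frequent on sham replicate 2 and sham replicate 5, each the lowest array for 6 genes. The share of all kept probes lowest on those arrays was not computed. Sham replicate 6 was the highest array for 9 genes, Ccl3, Ccl5, Ccl6, Ccl24, Ccr9, Cx3cr1, Cxcl2, Cxcl12 and Cxcl13, and among the 3 highest for 17. It was the highest array for 14.6% of all kept probes and among the 3 highest for 29.8%. For Cxcl12 this was the brighter probe, and the other kept Cxcl12 probe was lowest on sham replicate 6. Exposed replicate 2 was highest for 6 genes, among them Ccl19, Ccl27, Ccr7, Cxcl9 and Cxcl10, and among the 3 highest for 14, beside 7.18% and 22.1% of all kept probes. The excess of sham replicate 6 over the median of the other 16 arrays ran from 116-fold for Cxcl2, 25.2-fold for Ccl3 and 9.33-fold for Cxcl13 to 1.16-fold for Ccl24. In exposed replicate 2 the largest were 7.63-fold for Cxcl10, 3.37-fold for Ccl19, 3.17-fold for Cxcl9 and 3.15-fold for Ccl12. Without sham replicate 6 the SD over arrays was 1.10 for Ccl3, 0.56 for Cxcl13 and 0.50 for Ccl5.

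Markers of other cells on sham replicate 6 and exposed replicate 2 were read from marker lists. On sham replicate 6 the macrophage and dendritic cell score was 0.47, rank 2 of 17 arrays, and the interferon-stimulated gene score 0.67, also rank 2. The neutrophil score was 0.09, rank 9, and the wound-type keratinocyte score was -1.12, the lowest. The basal keratinocyte score was the highest, at 0.26. The T cell score was -0.13, rank 14, and the endothelial score -0.17, rank 15. The inducers Il1b, at 2.01, and Tnf, at -1.11, were highest on that array, as was Ccrl2, an atypical chemerin receptor, at -2.55. The inducer Il1a was 0.56, rank 5. On exposed replicate 2 the T cell score was 0.31 and the endothelial score 0.22, both rank 2. The macrophage and dendritic cell score was 0.23, rank 3, and the interferon-stimulated gene score 0.58, rank 4. The neutrophil and wound-type keratinocyte scores were 0.26 and 0.72, both rank 5, and the basal keratinocyte score 0.01, rank 9. On exposed replicate 2 Ccrl2 was -3.78, rank 2, and Tnf -1.62, rank 4, while Il1b was -0.11, rank 12, and Il1a -0.43, rank 16. The part of these cells in the values was not tested.

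**Figure D4:**
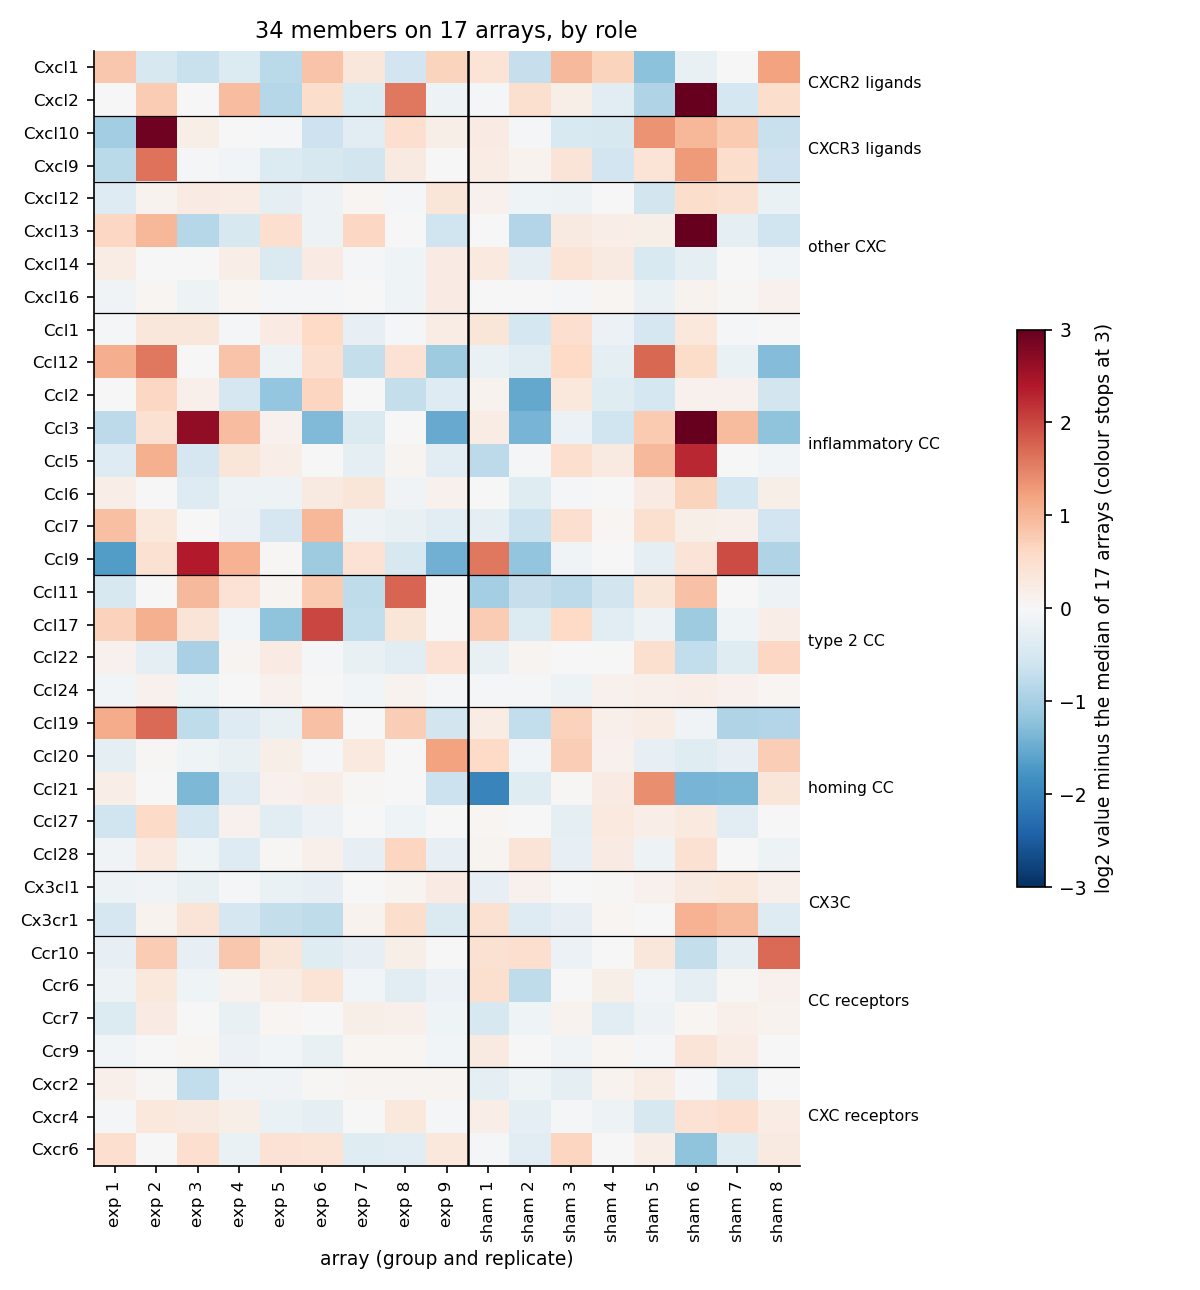
Log2 value minus the gene's median over 17 arrays (colour, which stops at 3 in either direction) for 34 of the 35 genes in rows, ordered by role, and 9 exposed and 8 sham arrays in columns. The darkest cells are Cxcl2, Ccl3 and Cxcl13 on sham replicate 6, and no block of genes separates the exposed from the sham columns.

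Pairs of genes that share a receptor, and ligands with their receptors, were compared over the 17 arrays. Of the pairs on the list 20 had both genes measured, and their p-values, from two-sided permutation tests with 100000 resamples, were adjusted over those 20. Cxcl9 and Cxcl10 had the closest relation (Pearson r = 0.88, p = 2e-05, adjusted p = 0.0004; Spearman rho = 0.87, p = 1e-05, the smallest that these permutations can give). Among 11156 named genes Cxcl10 had the highest r with Cxcl9. Without exposed replicate 2 and sham replicate 6, the arrays farthest from the median of Cxcl9, r was 0.79. It was 0.87 with slide means removed, 0.99 within slide 1 and 0.95 within slide 4, but 0.06 within slide 2. These slides held 5, 4 and 6 arrays, and slide 3, with 2 arrays, gives no value.

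Cxcl12 and its receptor Cxcr4 varied together over explants with r = 0.74 (permutation p = 0.00065, adjusted p = 0.0065; rho = 0.69, p = 0.0031). Without the 2 farthest arrays r was 0.59, and with slide means removed 0.67, where the adjusted permutation p was 0.105. These values are of the brighter Cxcl12 probe, which was highest on sham replicate 6, at 2.64. The other kept Cxcl12 probe was lowest on that array, at 0.73, and was not compared with Cxcr4. Ccl2 and Ccl7, neighbouring monocyte attractants that act on Ccr2, gave r = 0.70 (permutation p = 0.0019, adjusted p = 0.012; rho = 0.73, p = 0.0013). Without the 2 farthest arrays it was 0.59, and with slide means removed 0.77. Ccl7 and Ccl12 gave r = 0.66 (permutation p = 0.0037, adjusted p = 0.018; rho = 0.72, p = 0.0017), 0.70 without the 2 farthest arrays and 0.70 with slide means removed. Leaving out sham replicate 8 left 0.61 for that pair, with an adjusted permutation p of 0.065. Within slides 1, 2 and 4 the r of these 3 pairs stayed between 0.34 and 0.99.

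The other 16 pairs did not pass. Ccl3 and Ccl5, which share Ccr1, had r = 0.60 (permutation p = 0.021, adjusted p = 0.084; rho = 0.39), and 0.13 without sham replicate 6. Without exposed replicate 3 it was 0.79, with an adjusted permutation p of 0.012. Cxcl1 and Cxcl2, whose promoters both hold kappa B strings, had r = -0.06 (permutation p = 0.879; rho = 0.16), and 0.06 without sham replicate 6. The ligand and receptor pairs reported here, other than Cxcl12 with Cxcr4, ran from -0.26 for Cxcl16 and Cxcr6 to 0.39 for Cx3cl1 and Cx3cr1. Ccl19 and Ccl21 gave 0.34, Ccl17 and Ccl22 -0.03, and Ccl6 and Ccl9 -0.40. Pairs of Ccl2, Ccl3, Ccl11 and Ccl17 with Ccr2, Ccr1, Ccr3 and Ccr4, and those of Cxcl9, Cxcl10 and Cxcl13 with Cxcr3 and Cxcr5, could not be read because the receptors were too dim.

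**Figure D5:**
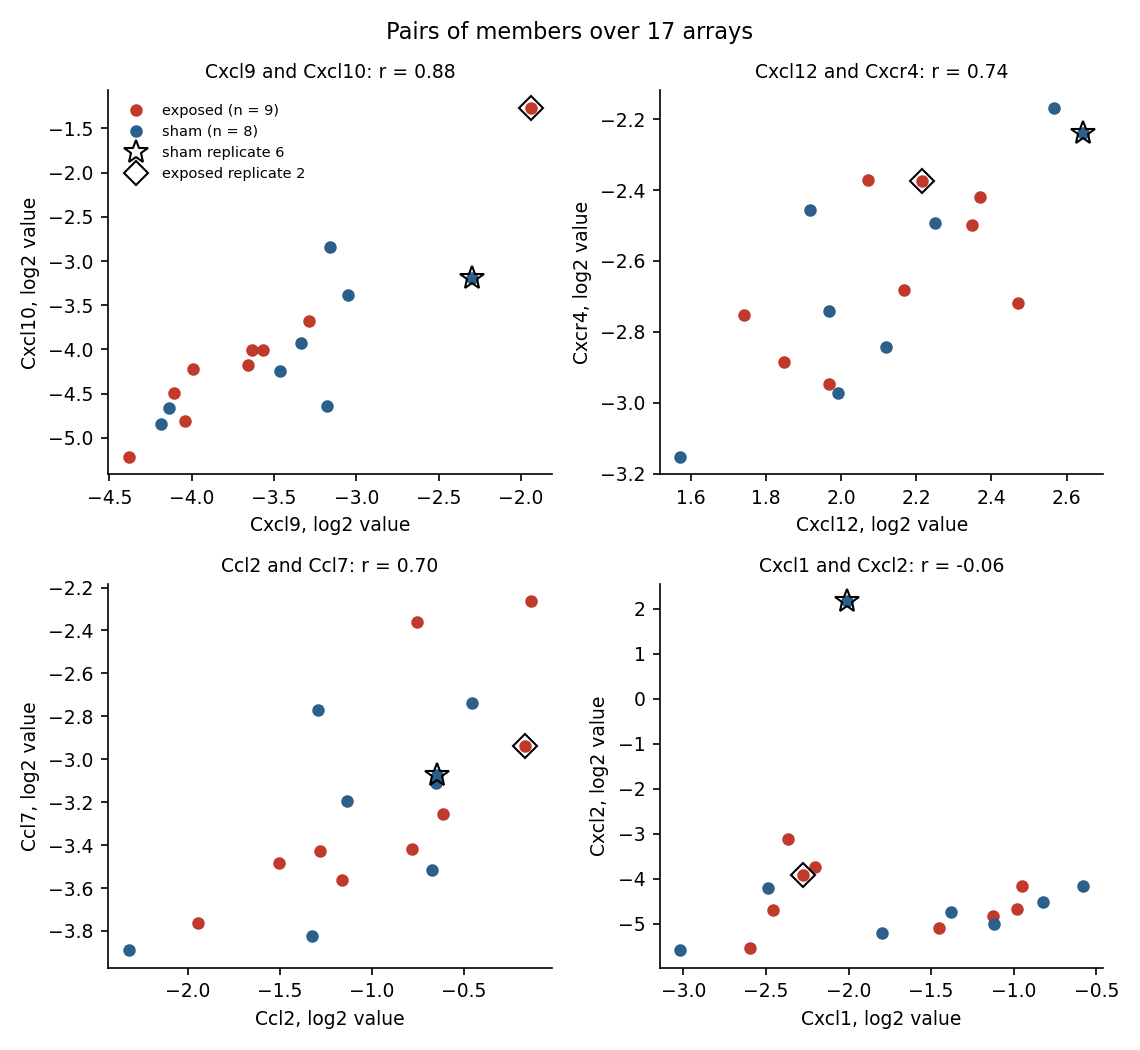
Log2 values of Cxcl9 and Cxcl10, Cxcl12 and Cxcr4, Ccl2 and Ccl7, and Cxcl1 and Cxcl2 against each other, 1 point per array, exposed (n = 9) and sham (n = 8). The first 3 panels rise together with r of 0.88, 0.74 and 0.70, and in the last 1 array, sham replicate 6, lies far above the rest for Cxcl2.

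Over all 595 pairs of the 35 genes the median r was 0.10, and 1.34% lay above 0.7, beside 0.01 and 1.04% over all pairs of kept probes. These 8 pairs were Ccr9 with Cx3cr1, at 0.90, Cxcl9 with Cxcl10, Ccl5 with Cxcl13, Cxcl12 with Cxcr4, Cxcl1 with Cxcl14, Cxcl2 with Cxcl13, Ccl2 with Ccl7, and Ccl5 with Cxcl2, at 0.70. Sham replicate 6 was highest for Cxcl2, Cxcl13 and Ccl5, and without it r was -0.19 for Cxcl2 with Cxcl13, 0.06 for Ccl5 with Cxcl2 and 0.40 for Ccl5 with Cxcl13. Below -0.7 lay 5 pairs, 0.84% beside 0.475% over all pairs. Lowest were Ccl21 with the brighter probe of Cxcl12, at -0.81, and Ccl9 with Cxcr2, at -0.73. These are descriptions over 17 arrays that share slides and scaling, with no test.

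For each of the 12 most variable genes the array's named genes were ranked by r over the 17 arrays, again as a description. Ccl21 was most like Lyve1, a receptor of lymphatic endothelium, at 0.95, and Scara5, a scavenger receptor, at 0.95. Lyve1 is 1 of 8 measured genes of the endothelial list. The score of that list had r = 0.44 with Ccl21 (rho = 0.22, adjusted permutation p = 0.365). Among the genes most like Ccl3 were Lilrb4, a myeloid inhibitory receptor, at 0.92, and Slc11a1, a metal transporter of phagocytes, at 0.89. Ccl5 was most like Nkg7, a granule gene of killer lymphocytes, at 0.88. Cxcl10 was most like Mettl25 at 0.93, then Cxcl9 at 0.88, the ubiquitin-like Ubd at 0.86 and the immunoproteasome subunit Psmb9 at 0.82. Cxcl1 was most like Gon7 at 0.84 and Lcn2, a product of neutrophils and inflamed epithelium, at 0.83. For these genes r without the 2 farthest arrays ran from 0.72 for Nkg7 to 0.93 for Lyve1 and Scara5.

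For Cxcl2 the ranking rested on 1 array. Its most alike gene was Ppig, a nuclear isomerase, at 0.85, and r was 0.19 without the 2 farthest arrays, 1 of which was sham replicate 6. For Ccrl2 it was 0.81 and then 0.05. Cxcl13 was most like Sephs1 at 0.87, and 0.57 without its own 2 farthest arrays, exposed replicate 2 and sham replicate 6. The most alike genes of Ccl9, Ccl12, Ccl17, Ccl19 and Ccl11 were Rassf4 at 0.88, Wtap at 0.83, Sprr3 at 0.80, Zfp143 at 0.81 and Podxl2 at 0.72.

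The levels of 16 genes were also set against 10 marker list scores, 160 relations in all. A two-sided permutation test adjusted over the 160 passed 1, that of Ccl21 with the dermal fibroblast score (r = 0.88, p = 1e-05, the smallest possible, adjusted p = 0.0016; rho = 0.81). It was 0.87 without the 2 farthest arrays, 0.82 in exposed and 0.89 in sham arrays, and 0.81 with slide means removed, where the adjusted permutation p was 0.205. All 7 fibroblast markers were measured, and their score ran from -0.34 to 0.34 in exposed and from -0.50 to 1.05 in sham skin, highest on sham replicate 5, the array with the highest Ccl21. Whether the share of dermis in an explant sets the level of Ccl21 was not tested.

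Further relations did not pass after adjustment. Ccl5 and Ccl12 had r = 0.72 and 0.70 with the macrophage and dendritic cell score, and Cxcl10 had 0.67 with the interferon-stimulated gene score (adjusted permutation p = 0.072 for each). After normexp background correction the Ccl12 and Cxcl10 relations were 0.74 and 0.71 and passed, with adjusted permutation p of 0.036 and 0.026. Without sham replicate 1 both passed (0.038 each), without sham replicate 2 all 3 passed (0.035 to 0.048), and without sham replicate 5 those of Ccl5 and Cxcl10 passed (0.048 each), all as adjusted permutation p. The macrophage score held 11 of 13 markers and ran from -0.31 to 0.23 in exposed and from -0.50 to 0.74 in sham skin. The interferon score held 10 of 11 and ran from -0.59 to 0.66 and from -0.80 to 0.74, with Ifit1 not above background on any array. Cxcl1 had r = 0.65 with the wound-type keratinocyte score and 0.64 with the neutrophil score (adjusted permutation p = 0.139 and 0.145). Ccl3 had r = -0.62 with the wound-type score (adjusted permutation p = 0.127), and -0.77 without sham replicate 2 (adjusted permutation p = 0.008). The neutrophil and wound-type scores both contain S100a8 and S100a9 and correlate with each other at 0.84 over the arrays. The neutrophil score held 5 of 10 markers and ran from -0.47 to 0.58 in exposed and from -0.67 to 0.51 in sham skin, with Ltf not above background on any array and Csf3r on 3. The T cell score held 8 of 10, with Trat1 not above background on any array, and ran from -0.34 to 0.31 and from -0.29 to 0.34.

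Genes around the chemokine system gave no call either. Of 7 measured atypical receptors and further chemokines 2 were higher and 5 lower, 0 with an unadjusted p under 0.05. Ackr3, a scavenger of Cxcl12, differed by -0.19 and Rarres2, which encodes chemerin, by 0.21, or 0.37 without sham replicate 5 and 0.13 without sham replicate 2. Of 17 receptor signalling genes 7 were higher and 10 lower, and 2 had an unadjusted p under 0.05 where the background is 4.55%. These were Rgs2, at -0.28, and Rgs16, at -0.22, both brakes on G protein signalling. Of 9 cytokine inducers and NF-kB genes 4 were higher and 5 lower, with the NF-kB inhibitor Nfkbia at -0.19, 1 gene at an unadjusted p under 0.05, and Il1b at -0.38, or -0.13 without sham replicate 6. Of 6 processing genes 2 were higher and 4 lower, with the proteoglycan Sdc4 at -0.10 and the peptidase Dpp4, which trims chemokines, at -0.14, or -0.08 without sham replicate 5. The adjusted p in limma was 0.983 for each of these 8 genes.

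The 4 slides were also compared as batches. limma's F test over the 4 slides called 0 of 20710 probes at an adjusted p under 0.05, 0%, and 1844, or 8.9%, at an unadjusted p under 0.05. Of the 35 genes 2 had an unadjusted p under 0.05, Cx3cl1, given above, and Cxcl16 (limma adjusted p = 0.415).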

How the data were processed

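Skin RNA of 17 explants was read on 1-colour Agilent arrays. The authors' deposited scanner files give linear fluorescence intensity from Agilent Feature Extraction 10.7.3.1 with protocol GE1_107_Sep09, per the file headers, and their processed signal is background-subtracted within each array. The files also hold other per-spot values, quality flags, which Feature Extraction wrote per the file headers. The deposited value table holds log2 values of 14853 probes, each with a median of 0. Against centred scanner values its columns had r from 0.981 to 0.999, so scale and direction are settled, and its scaling step is not given in the sources used here.

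Values here are log2 of the processed signal minus the array's 75th percentile. Control spots and spots marked as outliers were left out and the spots of a probe averaged. A probe counted as well above background where at least 50% of its spots did, and the 20710 of 30367 probes that did so on at least 8 arrays were kept. Sequence names were matched without version to RefSeq symbols of GRCr8, used for names and promoters only because the array annotation names rn4, and 17990 probes matched. A gene was read from its kept probe with the highest mean. The group test was limma 3.58.1 (R 4.3.3) with Benjamini-Hochberg adjustment at 0.05 over all kept probes, and intervals are 95% intervals. The number of arrays limits the precision. The fit was tested on simulated data.

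The genes given in full were the 12 with the largest SD and the 6 with the smallest p, then the 5 most alike genes of each of the 12 and the 2 genes with the smallest p in each pathway list. A few of these results are not reported here. Members and the 23 lists were chosen with earlier results of these data known. Alternatives were median and quantile scaling, normexp with an offset of 50, other filters, spots marked as outliers kept, slide as a block, each slide alone, array weights, the value table, the other kept probe of a gene (added after seeing the data) and each array left out. normexp ran on the median signal, since the files used here hold no mean signal.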

Additional observations from a re-analysis of the deposited data

Results flagged for a closer look

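A gap test (Dixon's) was run on each group of arrays for the 16 genes named by spread or p, 6 further genes of the set (Cxcl12, Ccl20, Cxcl9, Ccl2, Ccl7 and Cxcr4), 8 pathway genes and 10 marker scores, 80 groups in all, and 11 had an array that stood apart. Chance gives about 1 in 20 groups where genes are independent and chosen without regard to their spread. The genes named by spread were chosen for a large SD over these same arrays, which a single far array can raise. Some of the genes also vary together over the arrays. That rate therefore cannot be set against the number of groups found, and no excess over chance is read from it. The ratio of the gap to the group's range was compared with 0.526 for 8 sham and 0.493 for 9 exposed arrays. Values are log2 units.

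Sham replicate 6 stood above its group for 4 genes. Cxcl2 was 2.16 there with the nearest sham array at -4.16, Ccl3 0.93 with the nearest at -2.68, and Cxcl13 2.26 with the nearest at -0.69. Il1b, an inducer of chemokines, was 2.01 there with the nearest at 0.37. Exposed replicate 2 stood above its group for Cxcl10, at -1.27 with the nearest at -3.67, and for Cxcl9, at -1.94 with the nearest at -3.29. Exposed replicate 9 was highest for Ccl20, at 0.58 with the nearest at -0.34, and lowest for Nfkbia, at 0.98 with the nearest at 1.19. Sham replicate 2 was lowest for Ccl2, at -2.32 with the nearest at -1.33. Sham replicate 5 was highest for Rarres2, at 1.29 with the nearest at 0.35, and lowest for the hair follicle score, at -6.16 with the nearest at -1.05.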

How the results depend on the processing

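Under no setting tried did any of the 35 genes, or any probe, pass an adjusted p of 0.05 for exposure. Probes with an unadjusted p under 0.05 numbered 943, and 680 to 1354 with an array left out, and 0 to 2 genes of the set had one under the settings tried. These were not always the same genes or direction: Ccl11, higher, had one with slide as a block, without exposed replicate 7 and without sham replicate 6, and 2 genes, both higher and 1 of them Ccl7, within slide 1. The split of 123 higher and 820 lower was 203 and 595 with median scaling, 200 and 635 with quantile scaling, 203 and 601 with normexp and quantile scaling, 394 and 149 within slide 1, and 131 and 448 in the value table. More probes were lower with normexp and the 75th percentile (74 and 1062), with array weights (164 and 1111) and without the filter (152 and 1163). No paired analysis was possible because replicate numbers only name arrays. Relations with marker scores past the threshold numbered 1, 3 after normexp, 0 with slide means removed, and 1 to 6 with an array left out (4 without sham replicate 1, 6 without sham replicate 2, 4 without sham replicate 5). Differences that changed sign, none of them past the threshold, did so within slide 1 for Cxcl2 (0.039), Ccl3 (1.36), Ccl9 (0.19), Cxcl13 (0.69), Cxcl10 (0.59), Cxcl1 (0.033), Ccl5 (0.48) and Cxcl12 (-0.012). They did so within slide 2 for Cxcl2 (0.12), Ccl3 (0.21), Ccl9 (0.17), Cxcl10 (0.22), Ccl12 (-0.030), Ccl21 (-0.14), Ccl17 (-0.14), Ccl19 (-0.35) and Cxcr6 (-0.25). Within slide 3, with 1 array a group, they were Cxcl2 (2.49), Ccl12 (-1.27), Ccl21 (-1.41), Cxcl1 (0.65), Ccr9 (0.10), Cx3cr1 (0.53), Cxcr6 (-0.52) and Ccl20 (0.25). Within slide 4 they were Ccl12 (-0.76), Ccl11 (-0.25), Cxcl1 (0.34) and Ccl20 (1.16). Array weights turned Ccl3 (0.011), Cxcl13 (0.10) and Cxcl10 (0.13), slide as a block Cxcl10 (0.12), and quantile scaling Cxcl10 (0.011, or 0.038 after normexp). With each array left out the differences ran from -0.75 to 0.35 for Cxcl2, -0.71 to 0.21 for Ccl3, -0.52 to 0.035 for Ccl9, -0.35 to 0.23 for Cxcl13, -0.36 to 0.14 for Cxcl10, -0.046 to 0.43 for Ccl21, -0.075 to 0.078 for Cxcl12 and -0.19 to 0.035 for Ccl20, and r from -0.18 to 0.062 for Cxcl1 with Cxcl2. The cause of these changes was not tested.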
